A study of Mus musculus with 4 samples.

Results

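The solute carrier families Slc6, Slc7 and Slc38 were followed in cultured mouse neuroepithelial cells, the dividing precursors of the forebrain. The members were all probe sets on a microarray that the platform annotation assigns to exactly 1 gene whose symbol starts with Slc6a, Slc7a or Slc38a. A probe set is a group of short probes against 1 transcript. The rule found 46 genes with 92 probe sets, of 18193 genes with 34945 single-gene probe sets in all. Of the 46 genes, 44 are transporters: 20 in Slc6, 15 in Slc7 and 9 in Slc38. The others, Slc6a19os and Slc7a6os, are genes of the opposite strand that match the rule by their symbols, and were kept out of the counts. Each gene was represented by its probe set of highest mean signal.

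The E14.5 group held cells from the telencephalon of embryos at embryonic day 14.5, cultured for 4 days, on 2 arrays. The E11.5 group, against which they were set, held cells from embryonic day 11.5 (E11.5), cultured for 1 day, also on 2 arrays. All embryos were of the ICR strain, with no transgene or drug named in the labels. Every culture grew in N2 medium with 10 ng/ml basic FGF, a mitogen, on dishes coated with polyornithine and fibronectin. Age and days in culture changed together, so the effects of one and the other cannot be told apart. The labels do not say whether the replicate arrays came from separate cultures or animals, so the p-values reflect array-to-array spread alone, and that spread may be technical.

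Amino acid transporters move nutrients and transmitters across membranes. Slc6 proteins couple the uptake of GABA, glycine, monoamines, taurine, creatine or neutral amino acids to sodium and, in many members, to chloride. Some Slc7 proteins carry arginine and lysine on their own, and others are exchangers that need a heavy-chain partner, Slc3a2 or Slc3a1. Slc38 proteins carry glutamine and other small neutral amino acids at the plasma membrane or the lysosome. In brain, neurons and astrocytes use different members to clear transmitters and to pass glutamine between cells.

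Values are scaled signals: the deposited intensities times 1 factor per array, which brought the trimmed means of the 4 arrays (155 and 104 at E14.5, 188 and 253 at E11.5) to 167. Signals of different probe sets are not comparable as amounts of RNA, so only the arrays are compared, for each gene or for each summed list. A sum is weighted to the brightest probe sets of its list and can hide genes that go the other way. The log2 differences are E14.5 minus E11.5, taken after adding a pseudocount of 12.2 to every scaled signal, which shrinks the differences of dim genes. They carry the moderated SE of limma, with n = 2 arrays per group. It draws on the spread of other probe sets as well as on the gene's own arrays. A gene was called when its limma p-value, adjusted over all 27022 probe sets tested, was under 0.05. All 9 markers of neural progenitors were tested: 4 rose, Pax6 fell and 4 did not pass (summed signal 28508 and 29837 at E14.5, 20809.8 and 19150.1 at E11.5). Of 12 neuronal markers 11 fell (summed signal 5215 and 5032 at E14.5, 14978 and 15499 at E11.5). Of 10 astrocyte markers, of which 9 were tested, 8 rose (19849 and 15327 at E14.5, 4988 and 5304 at E11.5). Of 7 measured markers of oligodendrocyte precursors 6 rose (16020 and 18235 at E14.5, 1023 and 761 at E11.5). Of 8 microglial markers, of which 7 were tested, 6 rose (1295 and 1351 at E14.5, 179 and 211 at E11.5). Of 7 meningeal markers 3 fell (637 and 563 at E14.5, 1160 and 1162 at E11.5). Of 5 measured erythroid markers, of which 2 were tested, 2 fell (36.9 and 62.5 at E14.5, 791 and 366 at E11.5). Of 8 endothelial markers, of which 2 were tested, 1 rose (183 and 214 at E14.5, 217 and 183 at E11.5). In such bulk samples, fewer cells of a type and less RNA per cell cannot be told apart.

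Transporters moved in both directions. Of the 44, 25 were bright enough to be tested, 19 were not, and the 25 divided into 6 that rose, 6 that fell and 13 that did not pass. Among all 12952 genes tested, 14.3% were called higher and 13.6% lower, against 24% and 24% of the tested transporters. No test of the difference between these shares was made. With the values left as deposited, 2 transporters were called higher and 6 lower, and over all genes 255 higher and 2175 lower against 1847 and 1767 after scaling. On that scale the median difference of all genes was -0.68, against 0.027 after scaling. The groups did not overlap for 19 of the 25 transporters, where 65.6% of all genes tested did not overlap. In 10 of them both E14.5 arrays lay above and in 9 both lay below, where all genes gave 34.5% and 31.1%. The median log2 difference was 0.11 over the 25 tested transporters, and 0.047 over all 44 with no filter on signal. Without the variance trend, Slc6a6, Slc6a15, Slc7a6, Slc38a7 and Slc38a9 lost their calls, and without a filter on signal Slc6a15, Slc7a3 and Slc38a7 did. With no filter, 6 transporters were called higher and 4 lower. Those higher then included a transporter that was not bright enough to be tested with the filter. A gene can pass the filter through the group where it is high, so the 25 do not stand for all 44.

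**Figure D1:**
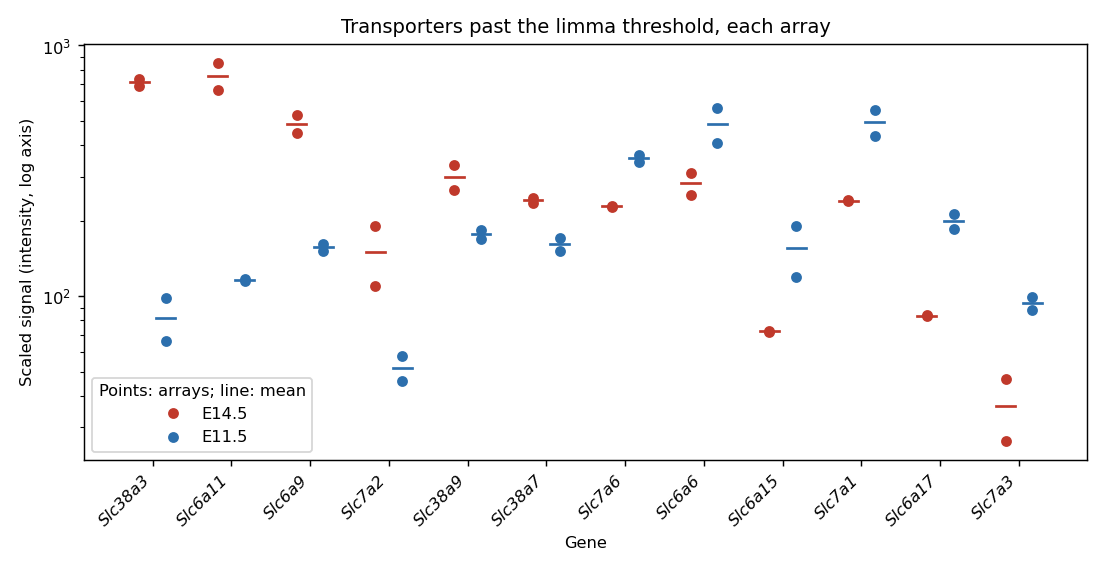
Scaled signal (log axis) of the 12 transporters that passed the limma threshold, with 1 point per array and a line at the mean of each group of 2, E14.5 left of E11.5. Genes run from the largest rise, Slc38a3, to the largest fall, Slc7a3. In each of them the arrays of the groups do not overlap, which selection by the threshold favours. Of all genes tested, 65.6% did not overlap. Heights can be compared within a gene only.

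Among the Slc6 carriers of transmitters and osmolytes, the GABA carrier Slc6a11 and the glycine carrier Slc6a9 rose and the taurine carrier Slc6a6 fell. Slc6a11, a GABA transporter of astrocytes, had signals of 852 and 663 on the E14.5 arrays, against 115 and 117 on the E11.5 arrays. Both E14.5 arrays lay far above both E11.5 arrays, and the means differed 6.54-fold (log2 difference 2.58 ± 0.17, adjusted p = 7.0e-06). Slc6a9, the glycine transporter found mainly on glia, had 446 and 529 at E14.5, against 161 and 152 at E11.5. The groups were clearly apart, with a ratio of 3.12 (1.56 ± 0.17, adjusted p = 0.00012), and a dimmer probe set of Slc6a9 also rose (0.92 ± 0.24). With the values left as deposited, Slc6a9 did not pass (0.82, adjusted p = 0.20). Slc6a6 carries taurine, an osmolyte abundant in immature brain. Its signals were 254 and 310.1 at E14.5, against 409 and 561 at E11.5, so that both E14.5 arrays were lower (-0.74 ± 0.19, adjusted p = 0.016). A second probe set of Slc6a6 also fell (-0.71 ± 0.21), but its other two probe sets had differences of -0.11 and -0.19. The call of Slc6a6 was lost without E11.5 replicate 2 (-0.52, adjusted p = 0.084), without E14.5 replicate 1 (-0.61, adjusted p = 0.058), and with its probe sets averaged (-0.44, adjusted p = 0.084).

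Slc6a8, the creatine transporter, had 855 and 563 at E14.5, against 377 and 558 at E11.5. The nearest arrays of the groups almost met, and the gene did not pass (0.58 ± 0.23, adjusted p = 0.090). It passed without E14.5 replicate 2 (0.88, adjusted p = 0.012) and without E11.5 replicate 2 (0.86, adjusted p = 0.00098). Its other probe set gave 0.50 ± 0.18. The GABA carriers Slc6a12 and Slc6a13 were too dim to test, with signals of at most 6.51 on any array.

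Of 10 Slc6 carriers of neutral amino acids 4 were tested, and Slc6a15 and Slc6a17 fell, where 13.6% of all genes tested were called lower. Slc6a17, a carrier of synaptic vesicles, had 83.1 and 83.9 at E14.5, against 186 and 212 at E11.5. The E14.5 arrays were nearly equal and well below both E11.5 arrays (ratio of means 0.42, log2 difference -1.14 ± 0.20, adjusted p = 0.0022). Of its dimmer probe sets, 1 also fell (-2.08 ± 0.40) and the other gave -0.12 ± 0.32. Slc6a15, which takes up branched-chain amino acids and proline in neurons, had 72.0 and 72.7 at E14.5, against 119.7 and 191 at E11.5 (-0.95 ± 0.25, adjusted p = 0.019). The E11.5 arrays of Slc6a15 were spread widely, and without E11.5 replicate 2 the call was lost (-0.64, adjusted p = 0.17). The fall of the neuronal markers given above runs beside these differences, and its part in them was not tested. Slc6a7, a proline carrier of brain, had 3.70 and 16.0 at E14.5, against 11.4 and 12.4 at E11.5, and was too dim to test. Slc6a18 and Slc6a19, transporters known from kidney and intestine, had differences of 0.46 ± 0.37 and -0.34 ± 0.34 and did not pass.

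The monoamine transporters gave little signal. Slc6a2, which takes up noradrenaline, had 40.1 and 53.5 at E14.5, against 44.5 and 39.8 at E11.5, and its groups overlapped (0.11 ± 0.30, adjusted p = 0.83). A probe set of Slc6a2 nearly as bright did not overlap, with 34.8 and 31.1 at E14.5, against 60.6 and 49.8 at E11.5. It was lower and did not pass (-0.57 ± 0.29, adjusted p = 0.20), and the remaining tested probe set gave 0.12 ± 0.43. The dopamine transporter Slc6a3, at 18.0 and 24.4 against 2.62 and 12.8, and the serotonin transporter Slc6a4, at 3.16 and 9.08 against 2.36 and 1.20, were not tested. The neuronal glycine transporter Slc6a5 had 24.3 and 16.1 at E14.5, against 3.07 and 1.42 at E11.5. At these probe sets of Slc6a3, Slc6a4 and Slc6a5 both E14.5 arrays lay above both E11.5 arrays, as for 34.5% of all genes tested. They stayed under the limit for testing, a mean signal of 26.0. A dimmer probe set of Slc6a5, not tested either, overlapped, with 2.68 and 4.17 at E14.5, against 3.54 and 8.28 at E11.5.

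**Figure D2:**
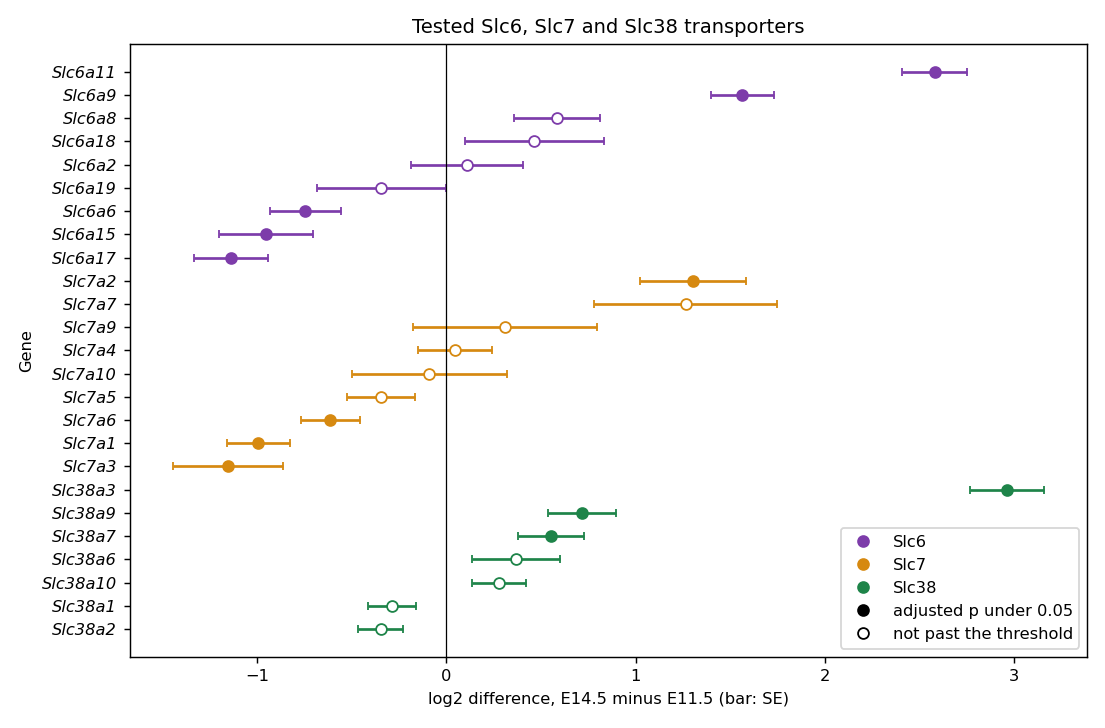
Log2 difference (E14.5 minus E11.5, bar: SE) of the 25 tested transporters, by family and size. Filled points passed an adjusted p of 0.05, and the largest differences are those of Slc38a3 (2.96) and Slc6a11 (2.58). None of the 7 tested Slc38 genes was called lower, where 13.6% of all genes tested were. Slc38a1 and Slc38a2 were lower and did not pass.

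The cationic amino acid carriers of the Slc7 family changed in opposite directions. Slc7a1, the widely expressed arginine and lysine carrier, had 239.7 and 241 at E14.5, against 551 and 436 at E11.5. Both E14.5 arrays were about equal and far below the E11.5 arrays (ratio 0.487, log2 difference -0.99 ± 0.17, adjusted p = 0.0018), and a second probe set of Slc7a1 also fell (-0.82 ± 0.18). Slc7a3, a brain carrier of the same substrates, had 26.5 and 46.6 at E14.5, against 88.2 and 99.6 at E11.5 (-1.15 ± 0.29, adjusted p = 0.016). Its groups were apart, but the call was lost without E11.5 replicate 2 (-1.07, adjusted p = 0.061) and without E14.5 replicate 1 (-0.85, adjusted p = 0.054). Slc7a2, a carrier known from liver, astrocytes and macrophages, had 190.2 and 109.9 at E14.5, against 57.5 and 46.0 at E11.5. The E14.5 arrays were uneven and both higher (ratio 2.90, 1.30 ± 0.28, adjusted p = 0.0072). With the values left as deposited, Slc7a2 did not pass (0.64, adjusted p = 0.28). Slc7a4, a relative of these carriers, had overlapping groups at its brightest probe set (0.046 ± 0.19). At its dimmer probe sets both E14.5 arrays lay above both E11.5 arrays, as for 34.5% of all genes tested. Neither of these passed (0.13 ± 0.26 and 0.52 ± 0.33).

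Among the exchangers that pair with a heavy chain, 1 of 5 tested was called, and it was lower. Over all genes tested, 13.6% were called lower and 14.3% higher. Slc7a6, which exchanges arginine for glutamine, had 229 and 227 at E14.5, against 367 and 343 at E11.5. Arrays within each group were close (-0.61 ± 0.16, adjusted p = 0.017), and its other probe set also fell (-0.73 ± 0.16). The call at the brighter probe set of Slc7a6 was lost without E11.5 replicate 1 (-0.56, adjusted p = 0.062) and without E14.5 replicate 2 (-0.60, adjusted p = 0.054). Slc7a5, the main importer of large neutral amino acids such as leucine, had 386 and 298 at E14.5, against 485 and 389.6 at E11.5. The brighter E14.5 array came close to the dimmer E11.5 array, and the gene did not pass (-0.35 ± 0.18, adjusted p = 0.20). Their partner Slc3a2 had 1040 and 990 at E14.5, against 1030 and 791 at E11.5, with overlapping groups (0.17 ± 0.15, adjusted p = 0.49).

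Slc7a7, an arginine exchanger prominent in macrophages, had 65.0 and 67.8 at E14.5, against 5.96 and 46.8 at E11.5. The E11.5 arrays differed from each other more than the groups did, and the gene did not pass (1.26 ± 0.48, adjusted p = 0.088). Leaving out 1 array gave differences of Slc7a7 from 0.41 to 2.11. The largest was without E11.5 replicate 2, where the lone E11.5 array had 5.96. A second tested probe set of Slc7a7 had 44.3 and 32.1 at E14.5, against 22.8 and 24.9 at E11.5. It did not pass either (0.47 ± 0.34, adjusted p = 0.37). The microglial markers given above were higher at E14.5, and their part in the values of Slc7a7 was not tested. Slc7a8, a relative of Slc7a5, had 33.4 and 43.3 against 23.1 and 3.04 and was too dim to test. Slc7a9, the cystine carrier of kidney, and Slc7a10, a carrier of small neutral amino acids including serine, had overlapping groups and did not pass (0.31 ± 0.49 and -0.09 ± 0.41).

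Slc7a11 imports cystine in exchange for glutamate and feeds glutathione synthesis. Its signals were 18.4 and 25.3 at E14.5, against 23.8 and 15.6 at E11.5, so that the groups overlapped below the limit for testing. Its other probe set, nearly as bright and not tested either, did not overlap: it had 30.3 and 27.7 at E14.5, against 6.78 and 11.7 at E11.5.

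The Slc38 family held the largest rise of all the transporters. Slc38a3, the glutamine carrier of astrocytes and liver known as a system N transporter, had 733 and 692 at E14.5, against 66.4 and 98.0 at E11.5. The lower E14.5 array was several times the higher E11.5 array, and the means differed 8.67-fold (2.96 ± 0.19, adjusted p = 6.0e-06). Its other tested probe set rose too (1.44 ± 0.43, adjusted p = 0.034). Slc38a1 and Slc38a2, the carriers that concentrate glutamine in neurons and other cells, did not pass. Slc38a1 had 1249 and 1247 at E14.5, against 1633 and 1426 at E11.5 (-0.29 ± 0.13, adjusted p = 0.14). Slc38a2 had 1672 and 1746 at E14.5, against 2126 and 2224 at E11.5 (-0.35 ± 0.12, adjusted p = 0.061). At these probe sets both genes were lower on each E14.5 array, as were 31.1% of all genes tested. A second bright probe set of Slc38a1 overlapped, with 893 and 1139 at E14.5, against 1030 and 1252 at E11.5 (-0.17 ± 0.16, adjusted p = 0.50). Slc38a2 passed after quantile normalization (-0.44, adjusted p = 0.013).

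Of the Slc38 carriers of the lysosome, both tested members rose in the scaled values, where 14.3% of all genes tested were called higher. Slc38a9, the arginine sensor that reports amino acids inside the lysosome to the growth kinase complex mTORC1, had 265 and 335 at E14.5, against 184 and 169 at E11.5. The groups were apart (0.72 ± 0.18, adjusted p = 0.016), but its 3 other tested probe sets gave 0.31, 0.17 and 0.57, none of which passed. The call of Slc38a9 was lost without E14.5 replicate 2 (0.55, adjusted p = 0.11) and with its probe sets averaged (0.44, adjusted p = 0.14). Slc38a7, which exports glutamine from lysosomes, had 236 and 247 at E14.5, against 151 and 171 at E11.5 (0.55 ± 0.17, adjusted p = 0.044). Leaving out any 1 of the 4 arrays ended the call of Slc38a7 (0.47 to 0.63, adjusted p = 0.053 to 0.16). With the values left as deposited, the differences were -0.022 for Slc38a9 and -0.18 for Slc38a7, above that scale's median of -0.68 for all genes. Slc38a6 and Slc38a10 were higher on both E14.5 arrays and did not pass (0.37 ± 0.23 and 0.28 ± 0.14).

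**Figure D3:**
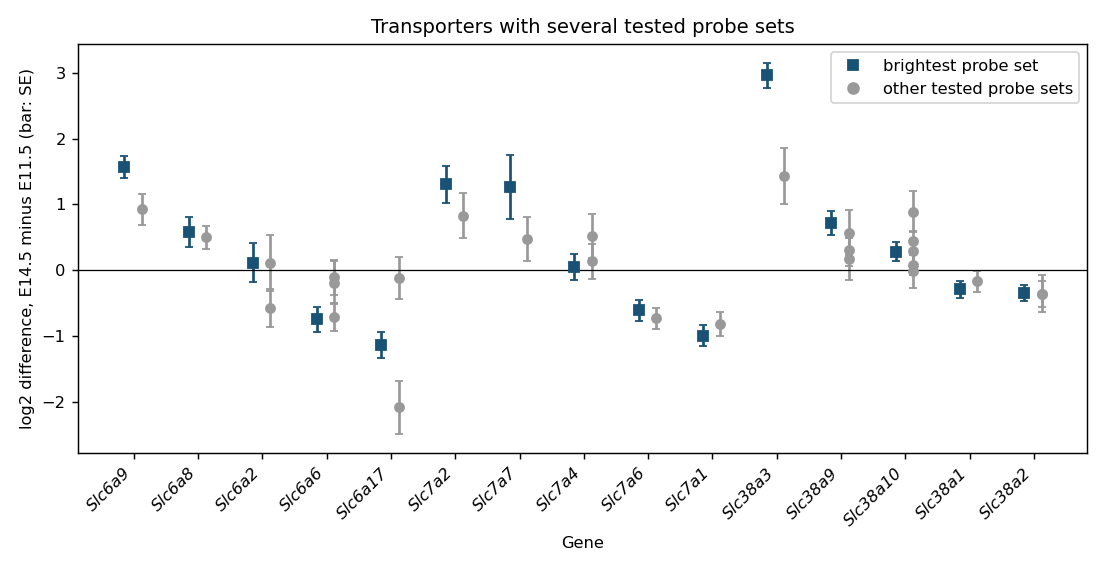
Log2 difference (E14.5 minus E11.5, bar: SE) at each tested probe set of the 15 transporters that have several, with the brightest as a square and the others as circles. For 13 genes every probe set has the same sign; those of Slc6a2 and Slc38a10 do not.

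The probe sets of a gene mostly pointed the same way. There were 52 tested probe sets for the 25 transporters, and in 0 genes were probe sets called in opposite directions. Of the 8 called transporters with several tested probe sets, 6 had a second one called in the same direction: Slc38a3, Slc6a17, Slc6a6, Slc6a9, Slc7a1 and Slc7a6. Slc7a2 and Slc38a9 did not.

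The 19 transporters that were not tested had signals between 0.281 and 43.3 on any array. In 10 of them both group means lay below the pseudocount, namely Slc6a4, Slc6a7, Slc6a12, Slc6a13, Slc6a14, Slc6a16, Slc6a20a, Slc6a20b, Slc6a21 and Slc7a15. Slc7a12 had 20.6 and 23.3 at E14.5, against 18.9 and 23.7 at E11.5, and Slc7a13 had 21.7 and 17.1 against 17.9 and 20.3, so both overlapped. Slc7a14 had 16.2 and 1.12 against 38.4 and 9.70, and Slc38a5, a second system N carrier, had 2.09 and 7.42 against 5.44 and 24.3. Slc38a4, a carrier known from liver and placenta, had 11.7 and 2.49 at E14.5, both below the 17.5 and 19.1 at E11.5. Of the opposite-strand genes, Slc7a6os had 53.1 and 40.6 at E14.5, against 46.5 and 65.8 at E11.5 (-0.20 ± 0.29, adjusted p = 0.68), and Slc6a19os was not tested.

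Start-site windows from RefSeq (GRCm38.p6, 250 bases before to 50 after a gene's start) were matched by gene symbol for 30 of the 44 transporters, with 50 distinct windows. They were searched on both strands for 4 motifs chosen with the values known. These were the amino acid response element TGATGNAA, which Atf4 binds with partners of the C/EBP family, and the antioxidant response element TGACNNNGC of Nfe2l2. The others were TTCNNNGAA for STAT factors and the palindrome of nuclear factor I, both of which act on astrocyte genes. The antioxidant motif was in 9 of the 50 windows (18%), against 12.4% of 32544 windows of all genes. The amino acid response motif was in 4 (8%, against 3.91%), the STAT motif in 3 (6%, against 8.33%) and the nuclear factor I motif in 0 (against 0.814%). Some windows of a gene overlap, so the same bases can count more than once. By gene, the antioxidant motif was in 7 of the 30 transporters and the amino acid response motif in 3. A match of letters is a description and not a bound site. Shown are the called transporters with a match, each by its first window that holds one, and Slc7a11, whose 2 copies of the amino acid response motif face each other. Capitals mark the matches: the antioxidant motif in Slc6a11, Slc6a9, Slc7a1 and Slc7a6, the STAT motif in Slc38a9, and in Slc7a11 the STAT motif followed by the amino acid response motifs.
Slc6a11, chr6:114130991-114131290, plus strand: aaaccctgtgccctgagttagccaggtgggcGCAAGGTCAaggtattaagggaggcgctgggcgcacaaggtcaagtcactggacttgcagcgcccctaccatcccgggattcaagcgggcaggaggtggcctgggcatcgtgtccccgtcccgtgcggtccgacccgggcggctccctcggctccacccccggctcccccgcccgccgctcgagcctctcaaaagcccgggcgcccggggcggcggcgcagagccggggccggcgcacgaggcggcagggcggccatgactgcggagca
Slc6a9, chr4:117849100-117849399, plus strand: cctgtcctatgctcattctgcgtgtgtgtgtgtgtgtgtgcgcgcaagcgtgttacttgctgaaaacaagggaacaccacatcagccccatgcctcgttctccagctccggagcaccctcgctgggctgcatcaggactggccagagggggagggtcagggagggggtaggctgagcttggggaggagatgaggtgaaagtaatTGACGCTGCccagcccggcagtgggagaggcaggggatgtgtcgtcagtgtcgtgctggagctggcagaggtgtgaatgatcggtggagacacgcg
Slc7a1, chr5:148399855-148400154, minus strand: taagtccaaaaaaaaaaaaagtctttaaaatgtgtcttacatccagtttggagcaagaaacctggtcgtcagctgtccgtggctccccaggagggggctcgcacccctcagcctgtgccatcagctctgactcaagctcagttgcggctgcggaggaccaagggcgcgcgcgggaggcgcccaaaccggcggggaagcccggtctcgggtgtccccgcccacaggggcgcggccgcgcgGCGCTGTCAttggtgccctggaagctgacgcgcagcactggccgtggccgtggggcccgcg
Slc7a6, chr8:106168604-106168903, plus strand: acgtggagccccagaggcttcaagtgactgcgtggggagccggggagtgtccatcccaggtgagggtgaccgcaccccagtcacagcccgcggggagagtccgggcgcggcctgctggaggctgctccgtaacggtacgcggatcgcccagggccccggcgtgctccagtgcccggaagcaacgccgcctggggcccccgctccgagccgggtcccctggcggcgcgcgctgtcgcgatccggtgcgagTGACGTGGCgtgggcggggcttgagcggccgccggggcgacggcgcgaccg
Slc38a9, chr13:112660516-112660815, plus strand: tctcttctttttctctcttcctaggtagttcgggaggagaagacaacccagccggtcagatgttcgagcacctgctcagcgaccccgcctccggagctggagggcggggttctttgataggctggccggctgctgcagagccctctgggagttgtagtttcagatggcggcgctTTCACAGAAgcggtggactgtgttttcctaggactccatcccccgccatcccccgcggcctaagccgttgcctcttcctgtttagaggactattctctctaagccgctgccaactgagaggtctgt
Slc7a11, chr3:50443564-50443863, minus strand: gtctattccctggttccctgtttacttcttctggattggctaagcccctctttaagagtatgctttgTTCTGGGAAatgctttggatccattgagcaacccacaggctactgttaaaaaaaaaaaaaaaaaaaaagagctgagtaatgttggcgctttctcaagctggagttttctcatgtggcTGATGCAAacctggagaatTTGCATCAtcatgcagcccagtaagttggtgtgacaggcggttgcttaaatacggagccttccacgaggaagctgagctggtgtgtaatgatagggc

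Other carriers of amino acids and transmitters also moved in both directions. Of 23 measured, 16 were tested, 4 rose and 6 fell, with a median log2 difference of 0.24, where 14.3% of all genes were called higher and 13.6% lower. The glutamate carriers of astrocytes, Slc1a3 (2.78 ± 0.13) and Slc1a2 (1.29 ± 0.18), rose, as did the glutamate and cysteine carrier Slc1a1 (2.20 ± 0.22) and the serine and alanine carrier Slc1a4 (0.86 ± 0.18). Slc1a5, the glutamine exchanger of dividing cells, fell: it had 42.4 and 36.2 at E14.5, against 222 and 197 at E11.5 (-2.10 ± 0.22). The vesicular carriers of neurons also fell, namely those of glutamate (Slc17a6, -3.60 ± 0.24), GABA (Slc32a1, -3.35 ± 0.39) and monoamines (Slc18a2, -1.29 ± 0.35). Slc36a4 of the proton-coupled family (-0.97 ± 0.18) and the leucine carrier Slc43a1 (-0.75 ± 0.24, adjusted p = 0.049) fell too. Slc36a1 (0.69), Slc43a2 (0.59), Slc18a1 (0.43), Slc16a10 (0.32), Slc3a2 (0.17) and Slc36a3 (-0.06) did not pass.

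Enzymes that make or break down the carried substrates moved in both directions. Of 28 measured 24 were tested, 9 rose and 5 fell, with a median of 0.12. These are 37.5% higher and 20.8% lower, where 14.3% and 13.6% of all genes were called. The enzymes of GABA synthesis fell, Gad1 by 1.80 and Gad2 by 2.20 on the log2 scale, while Abat, which breaks GABA down, rose (1.04 ± 0.15). Glul, the glutamine synthetase of astrocytes, had 3005 and 2703 at E14.5, against 918 and 804 at E11.5 (1.72 ± 0.13). Cdo1 (2.23 ± 0.19) and Csad (1.10 ± 0.20), enzymes on the route from cysteine to taurine, rose while the taurine carrier Slc6a6 was lower. Gatm (1.76 ± 0.20) and Gamt (1.74 ± 0.24), which make creatine, and the creatine kinase Ckb (0.60 ± 0.12) rose. Of the enzymes that use arginine or its product ornithine, Arg2 had 24.9 and 6.15 at E14.5, against 169 and 151 at E11.5 (-2.72 ± 0.35), and Odc1 also fell (-0.86 ± 0.15).

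**Figure D4:**
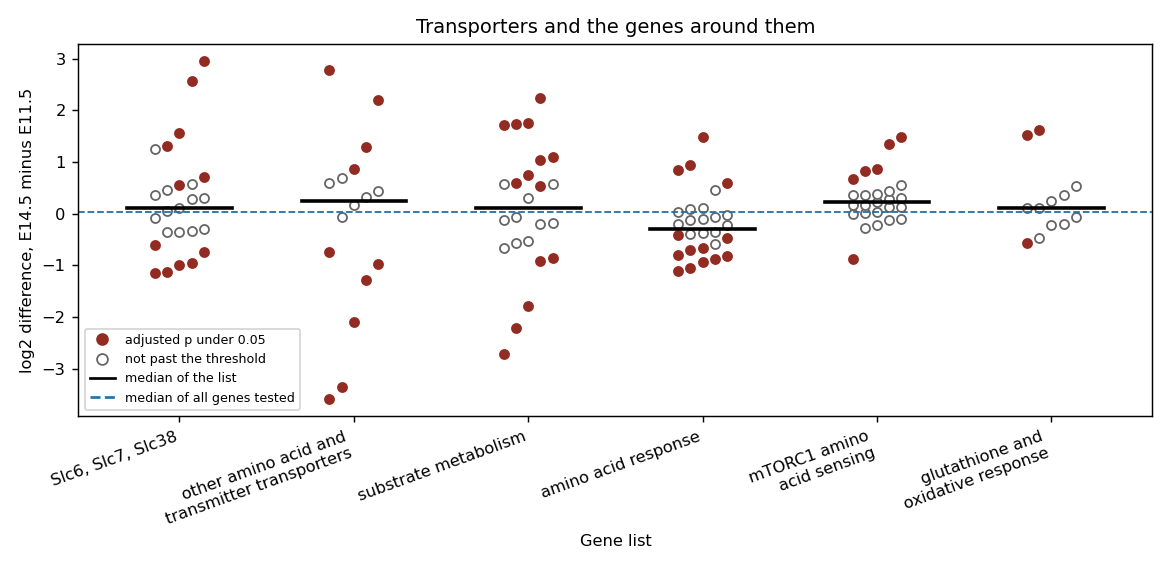
Log2 difference (E14.5 minus E11.5) of every tested gene among the Slc6, Slc7 and Slc38 transporters and in 5 lists of genes around them. Filled points passed an adjusted p of 0.05, bars are medians and the dashed line is the median of all genes tested; the amino acid response list has a median of -0.29 and the transporters one of 0.11.

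The amino acid response list holds Atf4, a factor made when amino acids run short, targets of Atf4 and other genes of the response. Several transporters are among the known targets of Atf4. Of 30 measured genes 28 were tested, 4 rose and 10 fell, with a median of -0.29, where 14.3% and 13.6% of all genes were called. Atf4 itself had 884 and 738 at E14.5, against 1380 and 1195 at E11.5 (-0.66 ± 0.14). The folate enzyme Mthfd2 (-1.11 ± 0.20), the cysteine-making Cth (-1.05 ± 0.22) and the methionyl-tRNA synthetase Mars1 (-0.94 ± 0.14) fell. Atf3, a stress-induced factor (1.48 ± 0.37), and Psph, the last enzyme of serine synthesis (0.95 ± 0.14), rose. The asparagine synthetase Asns did not pass (-0.38 ± 0.14, adjusted p = 0.078). Without the trend of variance on signal, 8 genes of the list were called.

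In the amino acid sensing branch of mTORC1, all 25 measured genes were tested, of which 5 rose, 1 fell and 19 did not pass (median 0.22). These are 20% higher and 4% lower, where 14.3% and 13.6% of all genes were called. Sesn3, a sestrin that restrains mTORC1, had 2794 and 3353 at E14.5, against 1223 and 956 at E11.5 (1.49 ± 0.15), and Sesn1 rose as well (0.86 ± 0.15). Lamtor4 (1.35 ± 0.14), Lamtor1 (0.68 ± 0.14) and Lamtor3 (0.83 ± 0.27, adjusted p = 0.048), subunits of the lysosomal scaffold that works with Slc38a9, rose. The GTPase Rragd fell (-0.87 ± 0.17), and Mtor did not pass (0.14 ± 0.13). With the values left as deposited, 1 gene of this list was called.

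Of 12 genes of glutathione and the oxidative response, all tested, 2 rose and 1 fell (median 0.11). These are 16.7% higher and 8.33% lower, where 14.3% and 13.6% of all genes were called. Hmox1, which degrades heme (1.62 ± 0.24), and the quinone reductase Nqo1 (1.52 ± 0.27) rose, and the glutathione reductase Gsr fell (-0.57 ± 0.15). The enzymes Gclc (-0.47 ± 0.17) and Gclm (0.36 ± 0.18), which use the cysteine that Slc7a11 supplies, did not pass.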

How the data were processed

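Total RNA of cultured neuroepithelial cells was measured on 4 one-colour Affymetrix arrays, 2 per group, with groups and replicate numbers taken from the sample titles. Each deposited value is an intensity on a linear scale for 1 probe set, from GCOS per the submitters' processing notes, with settings not stated. Leaving out 64 controls among 45101 probe sets, 34945 had 1 gene in the platform annotation, 932 several and 9160 none. Symbols were looked up through Entrez identifiers, which left 204 unmatched and updated 0.

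Because trimmed means (2% trimmed) differed by up to 2.43-fold, each array was multiplied by 1 factor to their common geometric mean. Probe sets at or above the 40th percentile of mean signal (26.0) were tested, 27022 in all. The pseudocount, 12.2, is the 25th percentile of all scaled values. Tests used limma 3.58.1 in R 4.3.3 (lmFit, eBayes with a variance trend, two-sided), with Benjamini-Hochberg adjustment over all probe sets tested. Each probe set had 2 residual degrees of freedom. The prior, taken from all probe sets tested, had a median of 8.0 and weighs in every SE. The fit was tested on simulated data. The number of arrays limits the precision.

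The members, gene lists, tests and alternatives were chosen with earlier results of these data known. The naming rule allows every transporter, all tested genes of the list of other carriers, and the 4 largest called genes of each other list. Genes named outside it were chosen after their values were seen: Glul, Abat, Csad, Gatm, Gamt, Ckb, Odc1, Atf4, Mars1, Asns, Pax6, Lamtor1, Lamtor3, Mtor, Gclc and Gclm. Alternatives were other scalings, pseudocounts and filters, averaged probe sets, no variance trend, a replicate block and leaving out each array.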

Additional observations from a re-analysis of the deposited data

How the results depend on the processing

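Of the 12 called transporters, Slc6a11, Slc6a17, Slc7a1 and Slc38a3 were called in all 13 alternatives run, and 10 kept their direction in all of them; the exceptions were Slc38a7 and Slc38a9, which turned in the values left as deposited. Over the tested transporters, 270 of 318 alternative values kept direction and side of the threshold, 24 lost the call, 8 gained it and 16 changed sign. Without scaling, the sign turned for Slc6a2 (-0.50), Slc6a8 (-0.17), Slc6a18 (-0.11), Slc7a4 (-0.67), Slc7a9 (-0.25), Slc38a6 (-0.30), Slc38a7 (-0.18), Slc38a9 (-0.022) and Slc38a10 (-0.48), where the median of all genes was -0.68. It also turned for Slc6a2 with probe sets averaged (-0.12) and without E14.5 replicate 2 (-0.054), for Slc7a4 without E14.5 replicate 2 (-0.042), for Slc7a9 without replicate 2 of either group (-0.12 without that of E11.5, -0.36 without that of E14.5), and for Slc7a10 with either E11.5 replicate 1 (0.43) or E14.5 replicate 2 (0.32) left out. The values without 1 array ran from -0.054 to 0.28 for Slc6a2, -0.042 to 0.13 for Slc7a4, -0.36 to 0.99 for Slc7a9 and -0.61 to 0.43 for Slc7a10, genes with no call. Without scaling, 2 transporters were called higher, 8 genes of substrate metabolism, 9 of the amino acid response, 1 of mTORC1 sensing and 1 of glutathione. Without the variance trend, 3 transporters were called lower, 8 genes of the amino acid response, and over all genes 2258 against 3614. The causes were not tested. Leaving out 1 array gave 5 to 7 transporters called higher and 3 to 5 lower, the 3 being without E11.5 replicate 2; a lone array left in a group is assumed to vary like the other group. With the replicate number as a block, 8 transporters were called higher, Slc6a8 and Slc7a7 added, and 6 lower; the deviations of same-numbered arrays correlated at r = 0.0041 across probe sets, and the labels do not say that the numbers pair the cultures. With 2 arrays per group, small differences of dim genes could not be resolved.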
